A study of Mus musculus with 3 samples.

Results

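Wnt proteins are secreted lipid-modified ligands that bind Frizzled receptors on nearby cells. When the co-receptor Lrp5 or Lrp6 joins the complex, beta-catenin is stabilised and TCF/LEF factors switch on target genes, of which Axin2 is the textbook feedback gene. Other ligands, with Wnt5a as the best known, mostly signal without beta-catenin. In the lung, Wnt7b is made by epithelium, Wnt2 and Wnt5a by mesenchyme, and Fzd4 is the Norrin and Wnt receptor of blood vessel endothelium.

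The members described here are the genes whose symbols are Wnt or Fzd followed by a number, with an optional letter for the Wnts, together with Lrp5, Lrp6 and Axin2. They came to 32 of the 32285 genes in the count matrices, namely 19 Wnt ligands, 10 Frizzled receptors and the other 3 genes. They were measured by single-cell RNA sequencing in 3 mouse tumour libraries, with 1 library per group. The library labelled CKO+RI came from mice in which Sfrp2, which encodes a secreted Wnt-binding protein, was deleted in cells with Col1a2 promoter activity, and the treatment was radiation plus an immune checkpoint inhibitor. Flox+RI came from mice with floxed Sfrp2 given the same pair of treatments, and Flox+ICI from floxed mice given the immune checkpoint inhibitor without radiation. In all groups the tumour cells were LLC1-sgLkb1, derived from Lewis lung carcinoma and described in the labels as LKB1 knockdown, injected into the tail vein to seed the lung and later placed under the skin, where the radiation was given. Tumour is the only tissue named in the labels, without the lesion, and neither the strain nor the number of mice pooled into a library was given in the sources used here. Alveolar and airway epithelial cells, which are cells of the lung, were present in each library.

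After filtering, 8383 CKO+RI cells, 11706 Flox+RI cells and 9777 Flox+ICI cells were kept, with a median of 13515, 2599 and 3011 unique molecular identifiers (UMIs) per cell in that order. Cells were assigned to 19 classes by marker genes that include none of the 32 members, and cells that met no class or more than 1 were set aside. The tumour class held 4474 CKO+RI cells, 4315 Flox+RI cells and 3084 Flox+ICI cells, with Xist, a transcript of the inactive X chromosome, at 2.87, 4.35 and 2.88 UMIs per 1000000 (CPM). In the same order, 95.7%, 93.0% and 97.6% of endothelial cells and 84.6%, 92.6% and 99.5% of fibroblasts lay in a cluster named alike. Pairs of libraries shared 31 to 37 barcodes. All levels below are UMIs of a gene per 1000000 UMIs of the class, and brackets hold exact 95% counting intervals, which say nothing of the spread between mice. With 1 library per group, no difference between libraries carries a p-value.

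Sfrp2, the targeted gene, was counted first. Over all kept cells the library labelled CKO+RI had 42 Sfrp2 UMIs, Flox+RI had 8 and Flox+ICI had 6, which is 0.291, 0.0922 and 0.0914 CPM. Of the 42 UMIs, 31 lay in the 31 cells gated as mesothelial. Fibroblasts held 1, 1 and 2 Sfrp2 UMIs in CKO+RI, Flox+RI and Flox+ICI. These counts do not show the deletion that the label gives, and whether the counted end of the transcript lies in the deleted part is not known. Every direction given for CKO+RI therefore goes by its label.

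The members were sparse. Fzd10 was never detected, 7 members including it had under 20 UMIs in the 3 libraries together, and 20 had at least 100. In some class with at least 20 cells in a library, 22 members reached 10 CPM, among them 11 Wnt ligands and 8 Frizzled receptors. In small classes a few UMIs pass that level, and 19 members, 9 of them Wnts and 7 Frizzleds, reached it on at least 10 UMIs. The other 3 were Fzd8, Wnt3a and Wnt7a, with 3, 4 and 5 UMIs at their highest. Below that level everywhere were Fzd9, Fzd10, Wnt1, Wnt2b, Wnt3, Wnt8a, Wnt8b, Wnt9b, Wnt10b and Wnt16. Several of the genes are neighbours in the genome (GENCODE vM21, build GRCm38). Wnt6 (chromosome 1, 74771892 to 74785322) ends 6194 bases before Wnt10a (chromosome 1, 74791516 to 74804179), both on the plus strand. Wnt3a and Wnt9a on chromosome 11 are 16176 bases apart, Wnt9b and Wnt3 on the same chromosome 24329, and Wnt10b and Wnt1 on chromosome 15 are 11707 bases apart.

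The 250 bases before the annotated start are shown for 3 members on which the results turn, the tumour ligand Wnt6, the endothelial receptor Fzd4 and the target gene Axin2. They come from RefSeq, build GRCm38.p6, and lie at chr1:74771642-74771891, chr7:89404116-89404365 and chr11:108920099-108920348, all on the plus strand. Capitals mark GC boxes (GGGCGG on either strand), the short element bound by Sp1.
Wnt6: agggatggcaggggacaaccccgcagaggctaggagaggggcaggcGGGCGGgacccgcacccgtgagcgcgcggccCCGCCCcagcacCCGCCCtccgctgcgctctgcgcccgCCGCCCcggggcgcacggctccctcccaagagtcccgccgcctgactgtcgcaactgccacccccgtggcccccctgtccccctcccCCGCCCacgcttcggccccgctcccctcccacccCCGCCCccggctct
Fzd4: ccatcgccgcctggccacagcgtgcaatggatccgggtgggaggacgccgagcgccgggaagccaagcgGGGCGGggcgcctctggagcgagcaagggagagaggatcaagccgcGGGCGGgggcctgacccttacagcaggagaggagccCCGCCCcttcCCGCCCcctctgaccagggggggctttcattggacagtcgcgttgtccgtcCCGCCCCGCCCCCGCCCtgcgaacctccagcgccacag
Axin2: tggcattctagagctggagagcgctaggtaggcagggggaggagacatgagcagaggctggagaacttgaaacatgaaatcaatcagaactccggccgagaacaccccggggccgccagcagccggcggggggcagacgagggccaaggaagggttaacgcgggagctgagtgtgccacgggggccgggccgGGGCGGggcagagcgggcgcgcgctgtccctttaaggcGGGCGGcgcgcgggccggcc
The windows held 6 GC boxes before Wnt6, 7 before Fzd4 and 2 before Axin2. Of the 22 members with a promoter in the table, 18 had at least 1 GC box, against 32.7% of all 32851 promoter windows. None of the 3 sequences shown held the TCF/LEF core on either strand, searched as CTTTG followed by AA, by AT, by TA and by TT. That core stood in the windows of 3 of the 22 members, Fzd7, Wnt5b and Wnt11, and in 14.8% of all windows. A match is a description of these letters and no evidence of binding.

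**Figure D1:**
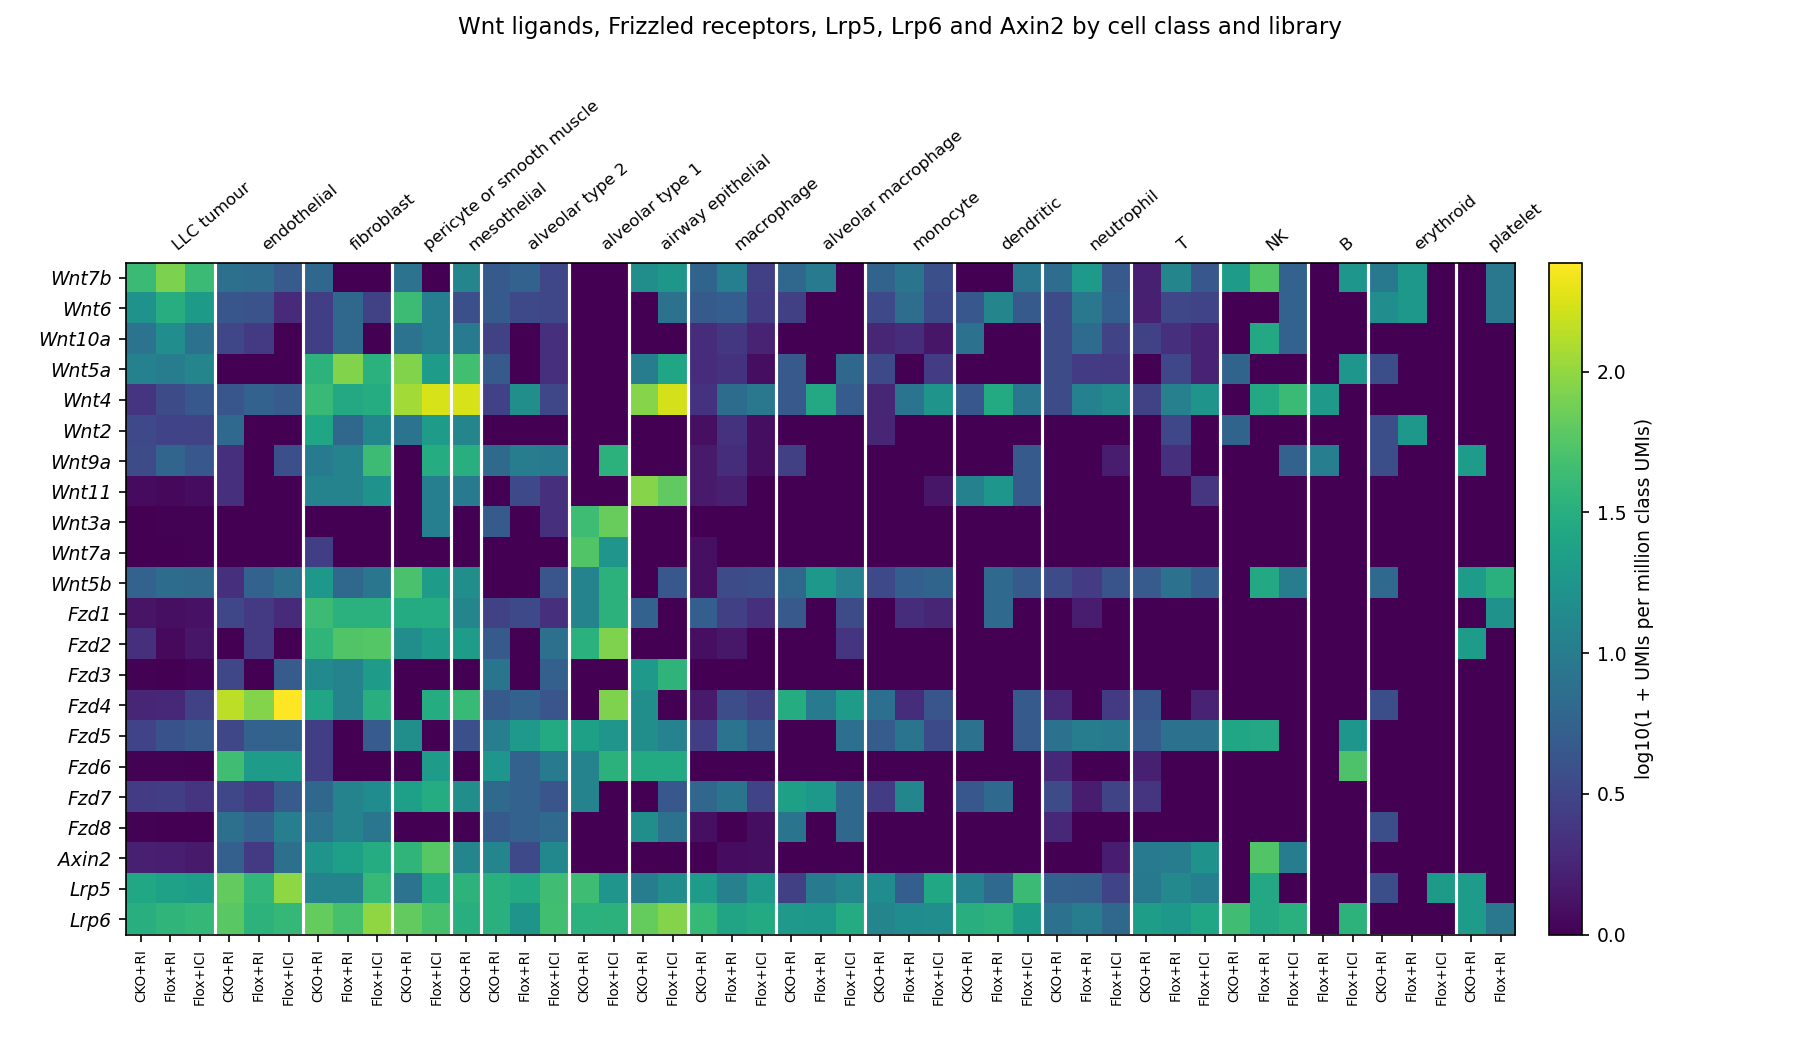
Level of the 22 members that reached 10 CPM (rows) in each cell class and library (columns), as log10 of 1 plus UMIs per 1000000 class UMIs, with classes under 20 cells in a library left out. Wnt7b is brightest in tumour cells, Fzd4 in endothelial cells, and Wnt4 in mesothelial, mural and airway cells.

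Which cells carried which ligand or receptor was tested across the 12 classes with at least 20 cells in every library. UMIs were summed per class and library, and each class was set against the mean of the other 11 classes on the log scale, with library as a block (edgeR quasi-likelihood test, Benjamini-Hochberg adjustment over 12186 genes). Of the 32 members, 14 passed the filter on low counts. The test gave 33 higher and 4 lower calls over the gene and class pairs. The lower calls were Wnt6 in T cells, Wnt5b in macrophages, Lrp5 in neutrophils and Lrp6 in erythroid cells, and each was lost when at least 1 library was left out. In 22 of the 33 higher calls the class also lay above the arithmetic mean of the other classes in 3 of 3 libraries. With library as a block, the spread in this test is how class differences vary from library to library. It includes any change of these differences with treatment, and says nothing of the spread between mice.

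Most UMIs of Wnt7b, Wnt6 and Wnt10a lay in tumour cells, as did most UMIs of any kind. Tumour cells held 94.1% of all Wnt7b UMIs, 92.0% of those of Wnt6 and 92.6% of those of Wnt10a, beside 80.3% of the UMIs of all genes. Of the 14 members tested, 5 were higher in tumour cells than in the other classes, where 31.6% of all genes tested were higher and 20.1% lower. Wnt7b, which drives lung epithelial and vascular growth in mouse development, was at 41.5, 82.3 and 41.3 CPM in tumour cells of CKO+RI, Flox+RI and Flox+ICI, against 5.97, 12.5 and 2.73 CPM as the mean of the other 11 classes (edgeR adjusted p = 2.82e-14). Wnt6 was at 15.4, 29.5 and 19.1 CPM, against 3.38, 5.48 and 2.16 CPM in the mean of the other classes (edgeR adjusted p = 2.88e-11). Wnt5a, the main ligand of beta-catenin-independent signalling, was at 10.2, 9.02 and 11.1 CPM, with an edgeR adjusted p of 6.79e-07 against the log mean of the other classes, although fibroblasts had a higher level. Wnt10a did not pass the filter and so has no class test. It was at 7.16, 13.7 and 6.90 CPM in tumour cells, and at 0.989, 1.45 and 0.695 CPM in macrophages from 4, 7 and 3 UMIs. Both co-receptors were called higher in tumour cells, Lrp5 at 25.3, 22.1 and 20.9 CPM and Lrp6 at 31.0, 35.1 and 38.3 CPM. Lrp5 lay under the arithmetic mean of the other classes in Flox+ICI, and its call was lost without the CKO+RI library (edgeR adjusted p = 0.103). The call for Lrp6 was lost with classes taken from named clusters (edgeR adjusted p = 0.0829).

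Frizzled transcripts were scarce in the same tumour cells. Fzd5 was the highest, at 2.05, 2.98 and 3.68 CPM in CKO+RI, Flox+RI and Flox+ICI, and Fzd7 was next in CKO+RI at 1.68 CPM, with 1.77 and 1.35 CPM in the other two libraries. No Frizzled receptor reached 4 CPM in tumour cells of any library. Axin2, the target gene, was at 0.632 (0.499 to 0.790), 0.571 (0.408 to 0.777) and 0.473 (0.296 to 0.716) CPM in tumour cells of CKO+RI, Flox+RI and Flox+ICI, and the intervals overlap. The edgeR adjusted p of Axin2 in tumour cells was 0.843. Levels of other genes of the pathway ranged widely in these cells. Porcn, which acts with Wls in Wnt secretion, was under 7 CPM in every library. Wls, which carries Wnts to the cell surface, was at 104.5, 91.6 and 103.1 CPM. Znrf3, a membrane ubiquitin ligase that removes Frizzled from the surface, was at 73.9, 98.2 and 138.6 CPM. Ryk, a receptor of beta-catenin-independent signalling, was at 66.6, 69.9 and 68.5 CPM, and the 3 libraries were close. By the class test, 4 of 8 feedback and target genes on a list without Axin2 were higher in tumour cells, namely Apcdd1, Ccnd1, Myc and Znrf3, where 31.6% of all genes were higher.

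**Figure D2:**
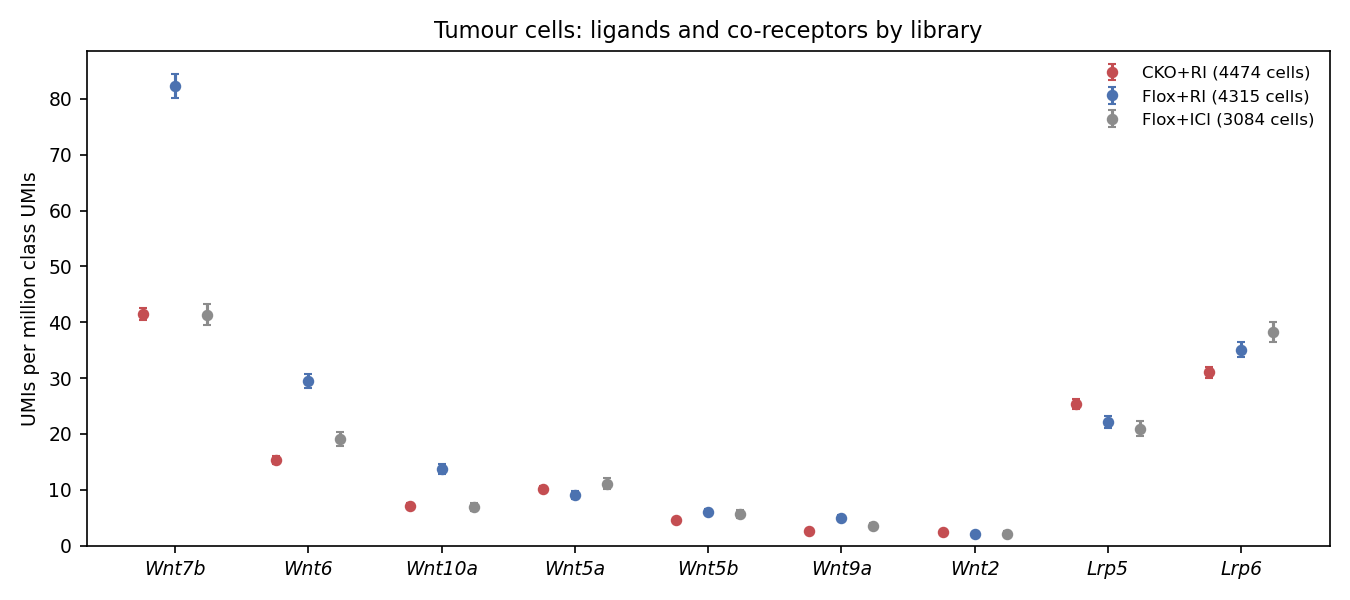
Levels of the main members in tumour cells (vertical axis, UMIs per 1000000 class UMIs) for CKO+RI, Flox+RI and Flox+ICI from left to right, with exact Poisson 95% intervals. Wnt7b stood at 82.3 CPM in Flox+RI and at 41.5 and 41.3 CPM in CKO+RI and Flox+ICI.

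The effect of Sfrp2 deletion under the combined treatment is the question of CKO+RI against Flox+RI. A member was counted as different when its ratio was at least 2-fold and its counting interval left out 1, among members with at least 20 UMIs in both libraries together. In tumour cells, 20 members qualified, of which 1 was higher and none lower, against 4.21% higher and 9.42% lower of 16966 genes. Wnt7b, Wnt6 and Wnt10a lay just short of that limit, while Wnt5a, which the class test called higher in tumour cells, was not lower. Wnt7b was at 41.5 (40.4 to 42.6) CPM in CKO+RI and 82.3 (80.2 to 84.5) CPM in Flox+RI, a ratio of 0.504 (0.485 to 0.523). The ratio was 0.522 (0.490 to 0.555) for Wnt6 and 0.524 (0.477 to 0.575) for its neighbour Wnt10a. Wnt9a, at 2.59 CPM in CKO+RI and 4.99 CPM in Flox+RI, had a ratio of 0.520 (0.445 to 0.607), and Wnt4 one of 0.505 (0.405 to 0.629). The interval lay wholly below 1 in these 5 ligands, and also in Lrp6, given next. So it did in Wnt5b (ratio 0.768, 0.676 to 0.874), Fzd5 (0.688, 0.571 to 0.831) and Fzd9 (0.547, 0.344 to 0.870). It lay wholly above 1 in Wnt5a, Lrp5 and Fzd2, given below. The share of all genes with an interval wholly below or above 1 was not counted. Wnt5a had a ratio of 1.13 (1.02 to 1.24), Wnt2 of 1.16 (0.949 to 1.43), Lrp5 of 1.14 (1.07 to 1.215) and Lrp6 of 0.884 (0.840 to 0.930). The median log2 ratio was -0.15 over the 20 members and -0.03 over all genes. The member called higher was Fzd2, a receptor of fibroblasts, at 1.13 CPM (138 UMIs) in CKO+RI and 0.143 CPM (10 UMIs) in Flox+RI, a ratio of 7.94 (4.19 to 16.9). Of the 138 UMIs, 39 and 46 lay in 2 tumour clusters with 930 and 898 cells of CKO+RI but 63 and 62 cells of Flox+RI. In the first of these Fzd2 was at 1.47 (1.05 to 2.01) CPM in CKO+RI and 1.18 (0.0298 to 6.56) CPM in Flox+RI, and in the second at 1.76 CPM in CKO+RI with no UMI in Flox+RI, where the exact 95% upper bound was 4.88 CPM. The ratio could be formed in 4 clusters, was above 1 in 3 of them and ran from 0 to 23.9. The part that the mix of tumour clusters has in this call was not tested.

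Radiation added to the checkpoint inhibitor in floxed mice is the question of Flox+RI against Flox+ICI, which shares the Flox+RI library with the comparison above. In tumour cells the median gene of 16460 had a log2 ratio of -0.24, so ratios centred on it are given too. Wnt7b was at 82.3 CPM in Flox+RI and 41.3 (39.5 to 43.2) CPM in Flox+ICI, a ratio of 1.99 (1.89 to 2.10), or 2.35 after centring. Wnt10a had a ratio of 1.98 (1.74 to 2.25), or 2.34 after centring, and Wnt6 one of 1.55 (1.43 to 1.67), or 1.82. For these 3 ligands Flox+RI was thus the high library and the other 2 were low. Of 21 members that qualified, none was called higher and 3 were called lower, against 3.21% higher and 7.90% lower of all genes. They were low in level. Fzd4 was at 0.856 CPM in Flox+RI and 1.96 CPM in Flox+ICI (ratio 0.438, 0.310 to 0.613), short of 2-fold at 0.516 after centring. Wnt1, a ligand of the developing brain, was at 0.171 CPM in Flox+RI and 0.860 CPM in Flox+ICI (ratio 0.199, 0.0951 to 0.387). Fzd2 had 10 UMIs in Flox+RI and 18 in Flox+ICI (ratio 0.369, 0.152 to 0.842), or 0.581 with each cell given the same weight. Wnt5a had a ratio of 0.813, or 0.958 after centring, and Lrp6 one of 0.918, which turned to 1.08 after centring.

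**Figure D3:**
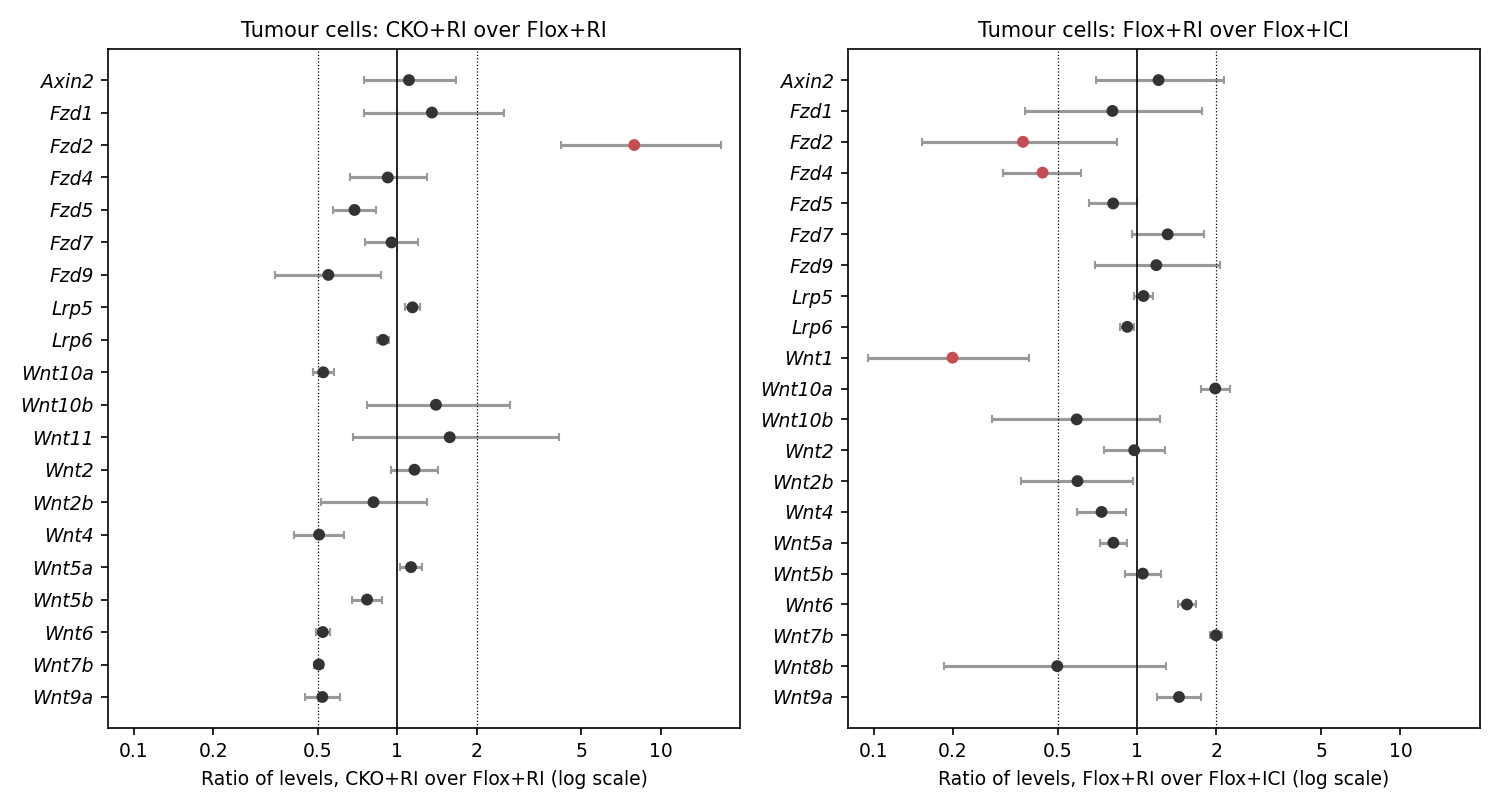
Ratio of levels in tumour cells for each member with at least 20 UMIs in both libraries together (log scale, bars are exact 95% counting intervals). The left panel is CKO+RI over Flox+RI, the right one Flox+RI over Flox+ICI; dotted lines mark 2-fold and coloured points are the members past it, Fzd2 on the left and Fzd2, Fzd4 and Wnt1 on the right.

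The Wnt7b pattern was seen within tumour clusters as well. Tumour cells fell into 9 clusters with cells of all 3 libraries, and several were made up mostly of 1 library. Wnt7b was lower in CKO+RI than in Flox+RI in 9 of 9 clusters, with ratios of 0.461 to 0.682, and higher in Flox+RI than in Flox+ICI in 9 of 9, with ratios of 1.29 to 3.98. Wnt10a lay below 1 in 9 of 9 clusters for CKO+RI over Flox+RI, at 0.173 to 0.576, and above 1 in 9 of 9 for Flox+RI over Flox+ICI, at 1.002 to 2.88. The ratio of 0.173 rested on 2 Wnt10a UMIs in CKO+RI. That of 1.002 came from nearly equal levels, 10.52 CPM in Flox+RI and 10.50 CPM in Flox+ICI. Wnt6 was less even, with 8 of 9 clusters below 1 in the first comparison and 5 of 9 above 1 in the second. These splits by cluster were chosen after the data were seen. The 9 clusters divide the same 1 library per group, so they are not replicates. With each tumour cell thinned to 5000 UMIs, a Wnt7b UMI was found in 17.2% of 4180 cells of CKO+RI, 30.4% of 3659 cells of Flox+RI and 15.8% of 2818 cells of Flox+ICI, after 294, 656 and 266 shallower cells were left out. Before thinning the shares were 54.5%, 56.8% and 35.9%, at medians of 25561, 15653 and 14610 UMIs. In macrophages thinned alike, the shares were 2.55%, 5.61% and 1.12%, at medians of 7968, 4528.5 and 5608 UMIs before thinning.

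**Figure D4:**
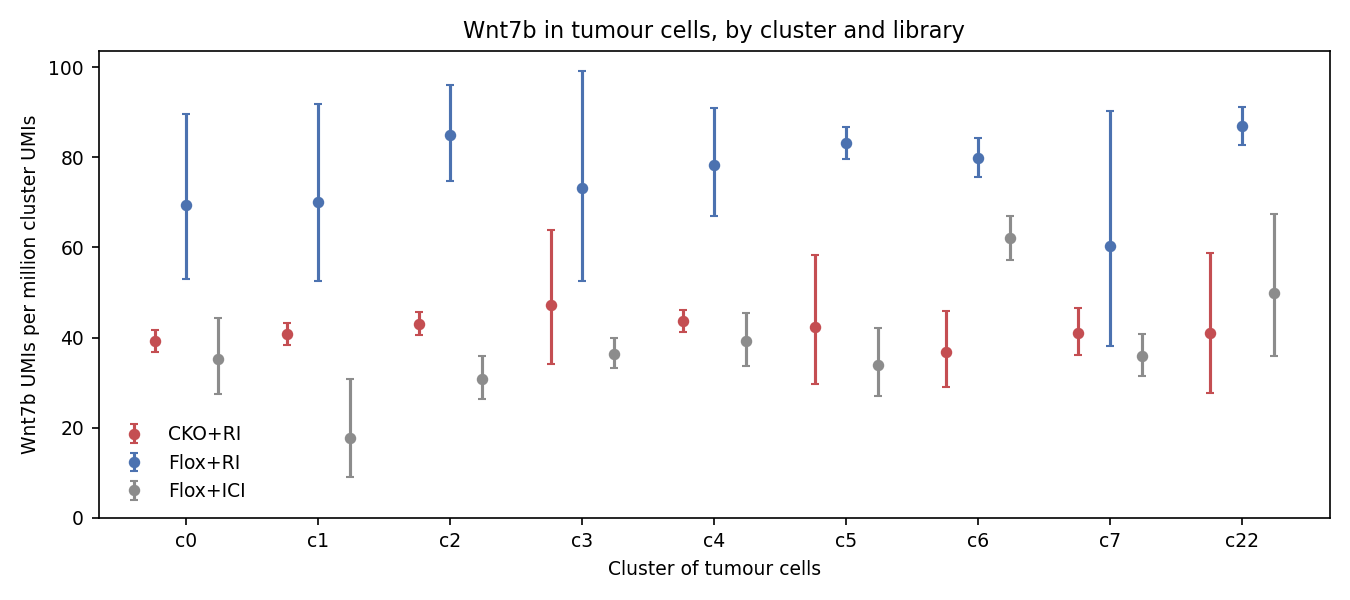
Wnt7b level (UMIs per 1000000 cluster UMIs, exact Poisson 95% intervals) in each of the 9 tumour clusters for CKO+RI, Flox+RI and Flox+ICI from left to right. Flox+RI is the highest library in every cluster shown, from 60.2 to 86.9 CPM.

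Some genes around the ligands differed in tumour cells too. Porcn, the enzyme that adds the lipid to Wnts, was at 2.58, 6.01 and 3.25 CPM in CKO+RI, Flox+RI and Flox+ICI, with ratios of 0.429 (0.370 to 0.498) for CKO+RI over Flox+RI and 1.85 (1.53 to 2.24) for Flox+RI over Flox+ICI. Of 5 secreted antagonists that qualified, 4 were lower in CKO+RI than in Flox+RI and 1, Frzb, was higher, where 9.42% of all genes in tumour cells were lower and 4.21% higher. Dkk2, which blocks Lrp5 and Lrp6, was the abundant one at 48.3 CPM in CKO+RI, 127.3 CPM in Flox+RI and 70.0 CPM in Flox+ICI, with ratios of 0.380 (0.367 to 0.392) and 1.82 (1.75 to 1.89). Like Wnt7b, its highest library was Flox+RI. Prickle1, a cytoplasmic protein of planar cell polarity, was at 15.3 CPM in CKO+RI and 32.3 CPM in Flox+RI (ratio 0.473, 0.445 to 0.503), with 31.6 CPM in Flox+ICI. Of 13 genes of cytoplasmic transduction, none was past 2-fold in either comparison, where 3.21% of all genes were higher and 7.90% lower in Flox+RI than in Flox+ICI. Ctnnb1, which encodes beta-catenin, was at 104, 118 and 142 CPM in CKO+RI, Flox+RI and Flox+ICI. Of 8 feedback and target genes that qualified, none was past 2-fold between CKO+RI and Flox+RI.

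Endothelial cells had Fzd4 and Fzd6 as the Frizzled receptors called higher than in the other classes, with both co-receptors. Frizzled calls were not particular to them, since fibroblasts had 4 and alveolar type 2 cells 3. Endothelial cells numbered 303 in CKO+RI, 114 for Flox+RI and 420 for Flox+ICI, with a median of 1570, 4199 and 1385.5 UMIs per cell. Of the 14 members tested, 5 were higher than in the other classes, where 22.6% of all genes were higher and 9.50% lower. Fzd4 was at 139 (116 to 166), 87.2 (66.0 to 113) and 243 (214 to 275) CPM in CKO+RI, Flox+RI and Flox+ICI, against 6.57, 2.62 and 6.08 CPM in the mean of the other classes (edgeR adjusted p = 2.75e-20). Fzd6, which acts in planar cell polarity, was at 44.2, 19.9 and 19.95 CPM, against 1.84, 0.427 and 0.802 CPM (edgeR adjusted p = 1.51e-12, and 0.0757 by DESeq2). Lrp5, the partner of Fzd4 in retinal vessels, was at 64.2, 36.7 and 96.0 CPM, against 11.7, 12.1 and 21.1 CPM (edgeR adjusted p = 6.86e-09). Lrp6 was at 58.6, 33.7 and 38.0 CPM (edgeR adjusted p = 0.000907, and 0.181 without the CKO+RI library). Axin2 was called higher as well but rested on 4, 1 and 7 UMIs, and the call was lost without CKO+RI (edgeR adjusted p = 0.132) or without Flox+ICI (edgeR adjusted p = 0.218).

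Between the libraries, Flox+RI had the lowest endothelial levels of Fzd4 and Lrp5. Against Flox+ICI, 4 members qualified and 2 were lower in Flox+RI, where 4.76% of 8558 genes were higher and 11.8% lower. The ratio of Flox+RI over Flox+ICI was 0.358 (0.264 to 0.479) for Fzd4, 0.383 (0.234 to 0.602) for Lrp5, 0.997 (0.459 to 2.09) for Fzd6 and 0.886 (0.501 to 1.53) for Lrp6. The median gene of the class had a log2 ratio of -0.11 there, and 0.12 for CKO+RI over Flox+RI. Between CKO+RI and Flox+RI, 1 of 4 members was higher, where 10.9% of 8350 genes were higher and 3.95% lower. That member was Fzd6, with 40 UMIs in CKO+RI and 13 in Flox+RI and a ratio of 2.22 (1.17 to 4.53), or 1.76 with each cell given the same weight. Fzd4, Lrp5 and Lrp6 had ratios of 1.60 (1.16 to 2.23), 1.75 (1.07 to 2.94) and 1.74 (1.04 to 3.01). The intervals of all 4 lay above 1, those of Lrp5 and Lrp6 narrowly, with lower bounds of 1.07 and 1.04. The share of all genes with such an interval was not counted. With each endothelial cell thinned to 1000 UMIs, a Fzd4 UMI was found in 12.96% of 216 cells of CKO+RI, 9.62% of 104 cells of Flox+RI and 24.1% of 291 cells of Flox+ICI, after 87, 10 and 129 shallower cells were left out. Before thinning the shares were 26.1%, 32.5% and 35.0%. T cells thinned alike had a Fzd4 UMI in 0.227% of 441 cells of CKO+RI, in none of 406 of Flox+RI and in none of 637 of Flox+ICI, with exact 95% upper bounds of 0.904% and 0.577%.

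Among downstream genes, Nkd1 had its lowest endothelial level in Flox+RI as well. Nkd1, a feedback inhibitor that Wnt signalling induces, was at 118 CPM in CKO+RI, 19.9 CPM in Flox+RI and 225 CPM in Flox+ICI, with ratios of 5.95 (3.34 to 11.5) for CKO+RI over Flox+RI and 0.0883 (0.0463 to 0.154) for Flox+RI over Flox+ICI. Lef1, a nuclear factor that acts with beta-catenin, was at 35.4, 7.65 and 16.2 CPM in the same order, from 32, 5 and 17 UMIs. Its ratio was 4.63 (1.79 to 15.2) for CKO+RI over Flox+RI and 0.474 (0.137 to 1.34) for Flox+RI over Flox+ICI, so the second difference was within counting error. Ccnd1, the cell cycle gene cyclin D1, went the other way, at 160 CPM in CKO+RI, 317 CPM in Flox+RI and 225 CPM in Flox+ICI. Tspan12, which helps Fzd4 respond to Norrin, was at 89.6, 45.9 and 61.8 CPM, and it was higher in endothelial cells than in the other classes (edgeR adjusted p = 3.74e-15). Of the 7 feedback and target genes that qualified, 2 were at least 2-fold higher in CKO+RI than in Flox+RI, and 2 of 7 were lower in Flox+RI than in Flox+ICI. Of all endothelial genes, 10.9% were higher in the first comparison and 11.8% lower in the second. Prickle2 was at 1169 CPM in CKO+RI, 142 CPM in Flox+RI and 1144 CPM in Flox+ICI. Whether kinds of endothelial cell differed between the libraries was not tested.

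Fibroblasts expressed both ligands and receptors, and were few, with 130 cells in CKO+RI, 27 for Flox+RI and 217 for Flox+ICI. Of 14 members tested, 9 were higher than in the other classes, where 19.9% of all genes were higher and 8.76% lower. Fzd1 was at 42.8, 32.2 and 32.8 CPM in CKO+RI, Flox+RI and Flox+ICI, against 1.11, 1.20 and 0.630 CPM in the mean of the other classes (edgeR adjusted p = 3.18e-12). Fzd2 was at 35.6, 53.7 and 56.0 CPM, against 0.467, 0.190 and 0.755 CPM (edgeR adjusted p = 1.32e-10). For both receptors the 3 intervals overlap. Axin2 was higher in fibroblasts than in the other classes, at 16.0 (7.33 to 30.4), 21.5 (5.85 to 55.0) and 29.0 (16.2 to 47.8) CPM (edgeR adjusted p = 8.81e-08). Wnt4, a ligand of mesenchymal and epithelial ducts, was at 41.0, 26.8 and 29.0 CPM (edgeR adjusted p = 3.12e-05), and at 82.8, 258 and 49.7 CPM with fibroblasts taken from named clusters. The 5 other members called higher were Wnt5a, Fzd4, Lrp6, Fzd7 and Wnt5b, of which Wnt5b (edgeR adjusted p = 0.702) and Fzd7 (edgeR adjusted p = 0.0525) lost the call without CKO+RI, and Fzd7 also without Flox+ICI (edgeR adjusted p = 0.335). Wnt5b, a relative of Wnt5a, was at 17.8, 5.37 and 7.72 CPM in fibroblasts from 10, 1 and 4 UMIs, and at 4.58, 5.96 and 5.68 CPM in tumour cells. Fzd3, a receptor of planar cell polarity, was at 12.5, 10.7 and 19.3 CPM in fibroblasts from 7, 2 and 10 UMIs, and Fzd8 at 7.13, 10.7 and 7.72 CPM from 4, 2 and 4 UMIs. The intervals of each of these 3 overlap between the libraries in fibroblasts.

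Fibroblast Wnt5a had its highest level in Flox+RI, at 33.8 (20.4 to 52.9) CPM in CKO+RI, 85.9 (49.1 to 140) CPM in Flox+RI and 32.8 (19.1 to 52.5) CPM in Flox+ICI, from 19, 16 and 17 UMIs. The ratio was 0.394 (0.192 to 0.819) for CKO+RI over Flox+RI and 2.62 (1.24 to 5.51) for Flox+RI over Flox+ICI. It was the 1 member lower of 5 in the first comparison, where 7.84% of 5751 genes were higher and 7.16% lower, and the 1 member higher of 7 in the second, where 5.33% of 5725 genes were higher and 12% lower. With fibroblasts taken from named clusters, the first ratio was 0.891 and the second 1.61, so both calls depend on how the cells were chosen. The first was 0.531 without doublet removal. Wnt9a was at 8.91 CPM in CKO+RI, 10.7 CPM in Flox+RI and 42.5 CPM in Flox+ICI, with a ratio of 0.253 (0.0288 to 1.03) for Flox+RI over Flox+ICI. Wnt2, a ligand of the lung mesenchyme, was at 24.9 CPM in CKO+RI, 5.37 CPM in Flox+RI and 11.6 CPM in Flox+ICI, from 14, 1 and 6 UMIs. Among the antagonists, Sfrp1, a relative of Sfrp2, was at 281 CPM in CKO+RI, 1949 CPM in Flox+RI and 598 CPM in Flox+ICI, with ratios of 0.144 (0.119 to 0.175) and 3.26 (2.79 to 3.80). Ror1, a receptor for Wnt5a, was at 198, 596 and 365 CPM, and like Wnt5a and Sfrp1 it was highest in Flox+RI.

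**Figure D5:**
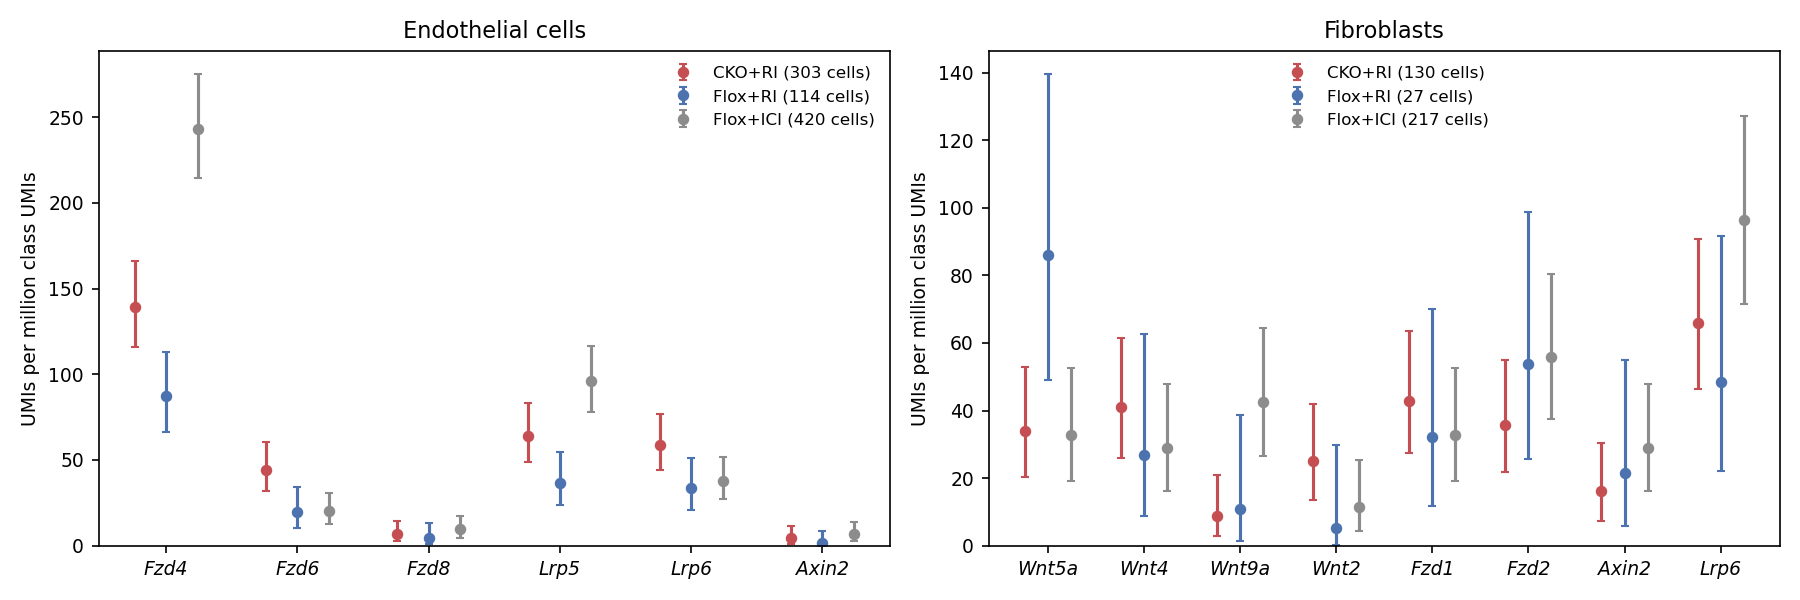
Levels of members (UMIs per 1000000 class UMIs, exact Poisson 95% intervals) in endothelial cells (left) and fibroblasts (right) for CKO+RI, Flox+RI and Flox+ICI from left to right. Endothelial Fzd4 was 139, 87.2 and 243 CPM, and the fibroblast intervals of Flox+RI are wide and rest on 27 cells.

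Epithelial, mural and mesothelial cells held other ligands, in classes too small for the test except alveolar type 2 cells. Wnt4 was at 174 (133 to 223) CPM in 31 mesothelial cells of CKO+RI, and 10 such cells of Flox+RI, under the minimum of 20, held 42 UMIs. In those 10 cells 1 Sfrp2 UMI was 7.89 CPM, so 42 Wnt4 UMIs are a higher level than that of CKO+RI. In pericytes or smooth muscle cells Wnt4 was at 113 CPM in 23 cells of CKO+RI and 174 CPM in 44 cells of Flox+ICI, and 12 cells of Flox+RI held 64 UMIs. Airway epithelial cells had Wnt4 at 88.5 CPM in CKO+RI and 170 CPM in Flox+ICI, and Wnt11, a ligand of beta-catenin-independent signalling, at 88.5 CPM and 62.4 CPM. Fzd3 was at 18.6 CPM in CKO+RI and 34.7 CPM in Flox+ICI in the same cells, from 4 and 10 UMIs, and Fzd8 at 14.0 CPM and 6.94 CPM, from 3 and 2 UMIs. Wnt5b had its highest level in pericytes or smooth muscle cells of CKO+RI, at 49.5 (19.9 to 102) CPM from 7 UMIs. Alveolar type 1 cells, 21 in CKO+RI and 33 in Flox+ICI, had Wnt3a at 43.1 CPM and 66.4 CPM and Wnt7a at 53.9 CPM and 16.6 CPM. These alveolar values rest on 1 to 5 UMIs each. No cluster was named mesothelial, so these cells rest on the marker gate alone.

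Alveolar type 2 cells, the surfactant-making cells of the lung, had 6 of 14 members higher, where 20.6% of all genes were higher and 6.47% lower. Fzd5 was at 9.40, 18.7 and 27.6 CPM in CKO+RI, Flox+RI and Flox+ICI (edgeR adjusted p = 3.79e-05), and the 3 intervals overlap. Fzd6 was at 16.9, 4.67 and 8.82 CPM (edgeR adjusted p = 5.01e-08, and 0.194 by DESeq2). Axin2 was at 11.3, 2.33 and 12.1 CPM from 6, 1 and 11 UMIs (edgeR adjusted p = 3.90e-05). The Flox+RI gate stands apart, with 31.9% of its 160 cells in an alveolar type 2 cluster, beside 79.7% in CKO+RI and 82.9% in Flox+ICI. Lrp6 was lower in Flox+RI than in Flox+ICI (7 and 41 UMIs, ratio 0.361, 0.137 to 0.814), as were 8.20% of 7265 genes, while 5.41% were higher, and was the 1 of 3 members past the limit. With cells taken from named clusters that ratio was 0.667. Neither of the 2 members that qualified between CKO+RI and Flox+RI was past it, where 7.06% of 5865 genes were higher and 9.48% lower.

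T cells had Axin2 at 8.92 (4.88 to 14.96), 8.96 (3.87 to 17.7) and 15.3 (9.61 to 23.2) CPM in CKO+RI, Flox+RI and Flox+ICI, above the mean of the other classes in 3 of 3 libraries (edgeR adjusted p = 1.54e-06). It was the 1 member higher of 14, where 23.4% of all genes were higher and 13.1% lower. B cells were too few to compare, since their 13, 70 and 28 cells held no Axin2 UMI and the exact 95% upper bounds of 91.8, 34.7 and 62.9 CPM lie above the T cell levels. Neutrophils thinned to 1000 UMIs had no Axin2 UMI in 515, 357 and 915 cells, with exact 95% upper bounds of 0.714%, 1.03% and 0.402%, and T cells thinned alike had one in 1.36%, 0.9852% and 1.88% of cells. Tcf7 and Lef1, nuclear factors of the pathway that mark naive and memory T cells, were also higher in T cells (edgeR adjusted p = 1.45e-17 and 4.43e-20). Tcf7 was at 58.6, 114 and 135 CPM, with a ratio of 0.513 (0.383 to 0.687) for CKO+RI over Flox+RI. Of 8 nuclear effectors that qualified in T cells, none was called different in that comparison. Pygo2 was past 2-fold without a call, at 6.37 CPM in CKO+RI and 13.4 CPM in Flox+RI, from 10 and 12 UMIs. Axin2 in NK cells, where 10.1% of all genes were higher and 5.81% lower, was called higher on 0, 2 and 2 UMIs, a call that ended without any one library (edgeR adjusted p = 0.0551 to 0.279). Of the 3 T cell members that qualified between CKO+RI and Flox+RI none was past 2-fold, and none of 4 between Flox+RI and Flox+ICI, where 5.04% and 1.63% of genes were higher and 4.39% and 3.32% lower.

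Myeloid classes had 0 to 2 of 14 members higher. Monocytes and dendritic cells had none higher by edgeR, by DESeq2 or at an unadjusted p under 0.05, where 19.9% and 7.39% of all genes were higher and 7.63% and 1.69% lower. In macrophages, where 19.9% of all genes were higher and 7.83% lower and 2 of 14 members were higher, Lrp6 was at 38.8, 24.02 and 27.8 CPM and Lrp5 at 19.3, 9.94 and 18.3 CPM in CKO+RI, Flox+RI and Flox+ICI. The 2 were Lrp6 (edgeR adjusted p = 0.0114, and 0.0729 by DESeq2) and Fzd1 (edgeR adjusted p = 0.0176, and 0.124 by DESeq2), the second under the arithmetic mean of the other classes in 3 of 3 libraries. Alveolar macrophages had 2 of 14 higher, where 16.6% of all genes were higher and 7.55% lower. Alveolar macrophages had Fzd7 at 21.8, 17.7 and 5.21 CPM (edgeR adjusted p = 0.00309, and 0.236 without CKO+RI) and Fzd4 at 29.0, 8.84 and 19.5 CPM (edgeR adjusted p = 5.66e-05), the second above the arithmetic mean of the other classes in 1 of 3 libraries. These levels rested on 12, 2 and 4 UMIs for Fzd7 and on 16, 1 and 15 for Fzd4. Neutrophils had Fzd5 at 6.98, 9.10 and 8.35 CPM (edgeR adjusted p = 0.00869, and 0.0522 without Flox+ICI), where 26.7% of all genes were higher and 11% lower. Erythroid cells had no Lrp6 UMI in any library, and 1.3% of all genes were higher and 1.76% lower in them. They had Wnt6 on 5, 1 and 0 UMIs, a call that ended without CKO+RI (edgeR adjusted p = 0.720).

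Wnt7b appeared at low level in host cells. Of the 7 classes with at least 5 Wnt7b UMIs in both libraries together, tumour cells included, 6 had a lower level in CKO+RI than in Flox+RI, and endothelial cells had a higher one (6.64 and 6.12 CPM, with intervals that overlap). In 6 of 6 such classes Flox+RI was above Flox+ICI. Macrophages had Wnt7b at 4.94 (3.02 to 7.63), 9.73 (7.15 to 12.9) and 1.85 (0.8004 to 3.65) CPM in CKO+RI, Flox+RI and Flox+ICI, which is 11.9%, 11.8% and 4.49% of the tumour level of the same library. The 4 other tumour genes Galntl6, Gm48619, Hoxa9 and Twist2 were chosen after the data were seen. Their median was 8.02%, 5.66% and 2.99% of the tumour level in the same macrophages. They ranged from 7.45% to 9.73% in CKO+RI, 3.36% to 8.08% in Flox+RI and 1.90% to 4.10% in Flox+ICI. With only 4 genes chosen in this way, the median does not set a level for free tumour RNA. The Wnt7b counts in macrophages were 20, 47 and 8 UMIs. Neutrophils had Wnt7b at 6.11, 18.2 and 3.66 CPM from 7, 34 and 7 UMIs. Wnt7b was called higher in Flox+RI than in Flox+ICI in macrophages (ratio 5.25, 2.46 to 12.9) and in neutrophils (ratio 4.98, 2.17 to 13.3), and lower in CKO+RI than in Flox+RI in neutrophils (ratio 0.336, 0.126 to 0.769, and 0.472 with an interval past 1 when at least 3 markers were asked for). The part that free tumour RNA has in these values was not tested.

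Of the 9 macrophage members that qualified between Flox+RI and Flox+ICI, 3 were higher, Wnt7b with Wnt6 and Fzd7, where 3.11% of 11770 genes were higher and 2.94% lower. Fzd7 was at 7.25 CPM in Flox+RI and 2.09 CPM in Flox+ICI (ratio 3.48, 1.64 to 8.22), and Wnt6 at 4.14 CPM and 1.62 CPM (ratio 2.55, 1.04 to 7.15). Without doublet removal the Wnt6 ratio was 1.95, and with each cell given the same weight it was 1.83. In neutrophils 1 of 5 was higher, where 22.3% of 9189 genes were higher and 6.70% lower, and the median gene of that class had a log2 ratio of 0.41. Of the 8 macrophage members that qualified between CKO+RI and Flox+RI, 2 were lower, where 5.32% of 11600 genes were higher and 7.57% lower. They were Fzd5, at 1.73 CPM in CKO+RI and 7.04 CPM in Flox+RI (ratio 0.246, 0.0919 to 0.563, and 0.410 with named clusters), and Wnt4 (ratio 0.206, 0.0622 to 0.538). In neutrophils 2 of 4 were lower, Wnt4 and Wnt7b, where 7.39% of 8758 genes were higher and 17.4% lower, and the median gene had a log2 ratio of -0.28.

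Wnt4 was spread thinly over host classes of both floxed libraries. It was at 1.24, 6.01 and 8.11 CPM in macrophages of CKO+RI, Flox+RI and Flox+ICI, at 2.62, 10.2 and 12.5 CPM in neutrophils and at 1.91, 10.1 and 16.0 CPM in T cells. In all 3 classes CKO+RI was the low library. Of the 10 classes with at least 5 Wnt4 UMIs in both libraries together, tumour cells included, 9 had a lower level in CKO+RI than in Flox+RI. Fibroblasts had a higher one, from 23 and 5 UMIs (ratio 1.53, 0.568 to 5.14). Among the 9, dendritic cells and monocytes had 1 Wnt4 UMI each in CKO+RI, against 5 and 7 in Flox+RI. Wnt4 was called lower by the rule in macrophages and in neutrophils (3 and 19 UMIs, ratio 0.257, 0.0488 to 0.875), although the neutrophil interval included 1 after centring. Between Flox+RI and Flox+ICI it was lower in monocytes (7 and 40 UMIs, ratio 0.443, 0.167 to 0.999), as was Lrp5 (4 and 64 UMIs, ratio 0.158, 0.0418 to 0.425), where 5.51% of 9700 genes were higher and 8.21% lower. Lrp5 was the 1 member of 2 higher in monocytes of CKO+RI than of Flox+RI (17 and 4 UMIs, ratio 3.29, 1.07 to 13.4), where 10% of 8416 genes were higher and 7.95% lower. With monocytes taken from named clusters that ratio was 0.966, and the ratios of Flox+RI over Flox+ICI were 0.5925 for Wnt4 and 0.629 for Lrp5, so none of the 3 calls held. Of the monocyte gate, 88.0% in CKO+RI, 17.4% for Flox+RI and 89.9% for Flox+ICI lay in a monocyte cluster. The part of free RNA in the Wnt4 levels was not tested.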

How the data were processed

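Single-cell RNA libraries of mouse tumour tissue, 1 per group, were grouped by sample title. The matrices deposited by the authors give UMI counts for each gene in each barcode. They come from Cell Ranger, 6.1.2 per the file headers. Per the submitters' processing notes the version was 6.0 and the build mm10 (GRCm38), and Seurat 5.0.3 is named without a step. Total depth was 161250286 UMIs for CKO+RI, 101840883 for Flox+RI and 75543561 for Flox+ICI, over 9300, 13340 and 10842 barcodes.

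Barcodes under 200 genes or over 20% mitochondrial UMIs were dropped. The highest doublet scores (scrublet in scanpy 1.11.5) were removed at 0.8% per 1000 barcodes, which took out 653, 1367 and 915 barcodes in the same order. A cell joined a class when it held at least 2 of its markers, scored at least 0.15 on a scale set by the top 100 cells, and no second class scored above 66.7% of the first. In the same order 188, 1530 and 372 cells had no class, and 720, 1043 and 743 lay between classes. Clusters (Leiden, resolution 2.0, no integration) served as an alternative. The gate thresholds were set after the data were seen. The members, markers and pathway lists were chosen with earlier results of these data known.

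UMIs were summed per class and library and divided by the class total. Levels carry exact Poisson intervals and ratios exact conditional binomial intervals, both 95%, which cover counting error only. Medians of log2 ratios had 0.5 counts added. Classes were compared with edgeR 4.0.16 (quasi-likelihood, threshold 0.05) or, as an alternative, DESeq2 1.42.0, in R 4.3.3. On simulated data for endothelial cells against the other classes, with 10095 genes, edgeR found 72 of 72 genes changed 4-fold and 88 of 88 changed 8-fold, and 10 of 170 calls were false. Named with values were members at 10 CPM or more in a class, members past 2-fold in a comparison, and Axin2, Lrp5 and Lrp6; further members and list genes were named after their values were seen. Of 15 antagonists listed, 14 symbols matched. Sequences came from RefSeq, with a promoter for 22 of 32 members.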

Additional observations from a re-analysis of the deposited data

Results flagged for a closer look

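Wnt4 was flagged in cells that no comparison used. In Flox+RI, the 1043 cells between classes had Wnt4 at 24.13 CPM (110 UMIs) and the 1530 cells with no class at 15.71 CPM (23 UMIs), against 5.957 CPM over all kept cells of that library. A floor of 3 counts was 0.6581 CPM and 2.049 CPM in these cells. The cells between classes of CKO+RI and Flox+ICI had 14 and 40 Wnt4 UMIs. No other member passed this rule, which asked for at least 20 UMIs and a level at least 2-fold that of all kept cells.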

How the results depend on the processing

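No paired analysis was possible because each group has 1 library. Counts of tumour members 2-fold lower in CKO+RI than in Flox+RI were 0 as reported, 1 without doublet removal, 2 with classes from named clusters, 4 with each cell given the same weight and 6 at a fold of 1.5. Tumour members higher in Flox+RI than in Flox+ICI were 0 as reported, 1 with at most 10% mitochondrial UMIs, with named clusters or with at least 3 markers in a cell, 2 with equal weight or centred ratios and 3 at a fold of 1.5. Gene and class pairs of host cells higher in CKO+RI than in Flox+RI were 2, and 7 with named clusters or at a fold of 1.5, and 1 with centred ratios or at least 50 UMIs. With at least 50 UMIs, pairs lower in CKO+RI were 0 (5 as reported), and pairs of Flox+RI over Flox+ICI were 1 higher and 3 lower (5 and 5 as reported). Monocyte Lrp5 for CKO+RI over Flox+RI turned to 0.966 with named clusters; the cause was not tested. Without a filter on low counts the class test called 9 of 31 members higher in tumour cells, 8 in endothelial cells, 15 in fibroblasts and 54 pairs in all, where 25.2%, 13.8% and 13.3% of 25284 genes were higher in these 3 classes. Lower calls were 19 with DESeq2, 15 with named clusters and 7 without doublet removal, against 4. Leaving out a library gave 5 to 6 higher calls in tumour cells, 3 to 6 in endothelial cells (3 without CKO+RI), 8 to 10 in fibroblasts, 26 to 36 in all, and 0 to 2 lower calls. Depth limits the members under 20 UMIs and the classes of Flox+RI with few cells.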
